A study of Rattus norvegicus with 36 samples.

Results

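Small RNA was sequenced from the infralimbic (IL) cortex of 4 rats at acute cocaine withdrawal and 4 cocaine-naïve rats, and all 723 mature miRNAs in the count table were compared between these groups. The 8 libraries were chosen by their labels for region and withdrawal state, out of 36 libraries in the series, and 457 of the 723 miRNAs had enough counts to be tested. All rats were male, of matched age and from heterogeneous stock, an outbred line in which every animal is genetically distinct. Withdrawal rats had self-administered intravenous cocaine in short and then long daily sessions, with rising intake, and were killed 16 h after the last session according to the labels (the study's methods give a slightly longer interval). According to the study they also went through behavioural tests, among them tests of motivation (progressive ratio) and of resistance to foot shock. Naïve rats had received no cocaine, and whether they had catheters, lever training or these tests is not given in the sources used here. Cocaine, surgery, training and testing therefore cannot be told apart between the groups. The other libraries came from the prelimbic (PL) cortex and nucleus accumbens (NAc) of the same rats and from the same 3 regions of 4 rats after 4 weeks of abstinence.

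A miRNA is a short RNA cut from a hairpin precursor, whose 5p and 3p arms can each be loaded into an Argonaute protein and lower the output of messenger RNAs that pair with its seed, the stretch from base 2 to base 8. miRNAs that share a seed form a family with overlapping targets, and those made from one precursor transcript form a cluster. The IL cortex projects to the accumbens shell and is known for its part in extinction and in the control of drug seeking. The samples were bulk tissue, so fewer cells of a type and less RNA per cell cannot be told apart.

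Total counts in the 8 libraries ranged from 8510309 to 11035007 (median 9406154), and miR-128-3p, a neuronal miRNA, took 17.2% to 29.3% of them. RNA integrity numbers (RIN) were 8.9 to 9.2 in naïve rats and 8.2 to 9.0 in withdrawal rats. Pearson r of log2 CPM (CPM is a library's share of counts, scaled by TMM) between rats of one group was 0.968 to 0.988 and no library was a copy of another. One library stood apart: on the first principal component (26.9% of the variance) withdrawal rat 1 was at −17.26, and the other 7 rats lay between −4.79 and 7.22. Most results that rest on this rat are given with and without it below, and a figure shows every miRNA past the thresholds both ways.

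The mature sequences below belong to the miRNAs on which the comparison turns, those past both thresholds whose withdrawal and naïve rats did not overlap, with the seed in capitals (RefSeq, assembly GRCr8, 5′ to 3′). The first 4 were higher at withdrawal and the other 7 were lower. The twelfth such miRNA was miR-30b-5p.
miR-92b-3p: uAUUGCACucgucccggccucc
miR-935: cCAGUUACcgcuuccgcuaccgc
miR-409a-3p: aAUGUUGCucggugaacccc
miR-666-5p: aGCGGGCAcggcugugagag
miR-582-3p: aACCUGUUgaacaacugaaccc
miR-194-5p: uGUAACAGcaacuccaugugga
miR-382-3p: aAUCAUUCacggacaacacuu
miR-379-3p: cUAUGUAAcaugguccacuaac
miR-22-5p: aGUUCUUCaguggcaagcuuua
miR-24-2-5p: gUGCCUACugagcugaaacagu
miR-152-3p: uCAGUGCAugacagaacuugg

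No 2 of these 11 shared a seed, and the 26 named miRNAs with a sequence held 26 different seeds. At withdrawal, 29 miRNAs (6.35% of the 457 tested) differed from naïve at least 1.5-fold and had p under 0.05, before adjustment, in edgeR's quasi-likelihood test, the thresholds used throughout. Of these, 15 were higher (3.28%) and 14 lower (3.06%), a split that became 12 higher and 18 lower when libraries were scaled by their totals alone. None passed after Benjamini-Hochberg adjustment over the 457 miRNAs, where edgeR gave an adjusted p of 0.489 to all 29, and 38 miRNAs (8.32%) had an unadjusted p under 0.05. limma-voom and DESeq2 also called 0 after adjustment, with 19 and 31 past the thresholds. In 34 miRNAs (7.44%) the 4 withdrawal rats did not overlap the 4 naïve rats, 10 higher (2.19%) and 24 lower (5.25%), and 12 of these (2.63%) were among the 29. The smallest two-sided p that an exact permutation test can give with 4 rats against 4 is 0.0286, and it is the exact p of each non-overlapping miRNA.

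Most of the 29 depended on withdrawal rat 1. Without that library, 8 miRNAs passed the thresholds, 3 higher (0.656%) and 5 lower (1.09%), and 3 of them were among the 29, namely miR-92b-3p, miR-582-3p and miR-30b-5p. The other 5 were miR-200a-5p, miR-488-5p, miR-34b-5p, miR-34c-5p and miR-34c-3p, described further below. The first 3 also passed with each of the other 7 libraries left out in turn. Rat 1 had the highest withdrawal value in 13 of the 15 higher miRNAs and the lowest in 5 of the 14 lower ones. Other libraries mattered as well: 15 miRNAs passed without naïve rat 1 (12 of the 29) and 62 without withdrawal rat 4 (26 of the 29). All 14 lower miRNAs and 14 of the 15 higher ones kept their sign without withdrawal rat 1, and miR-3544 reversed. Leaving out withdrawal rat 1 together with naïve rat 3, the farthest out on the second component (14.28), left 2 miRNAs past the thresholds, miR-582-3p and miR-30b-5p.

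**Figure D1:**
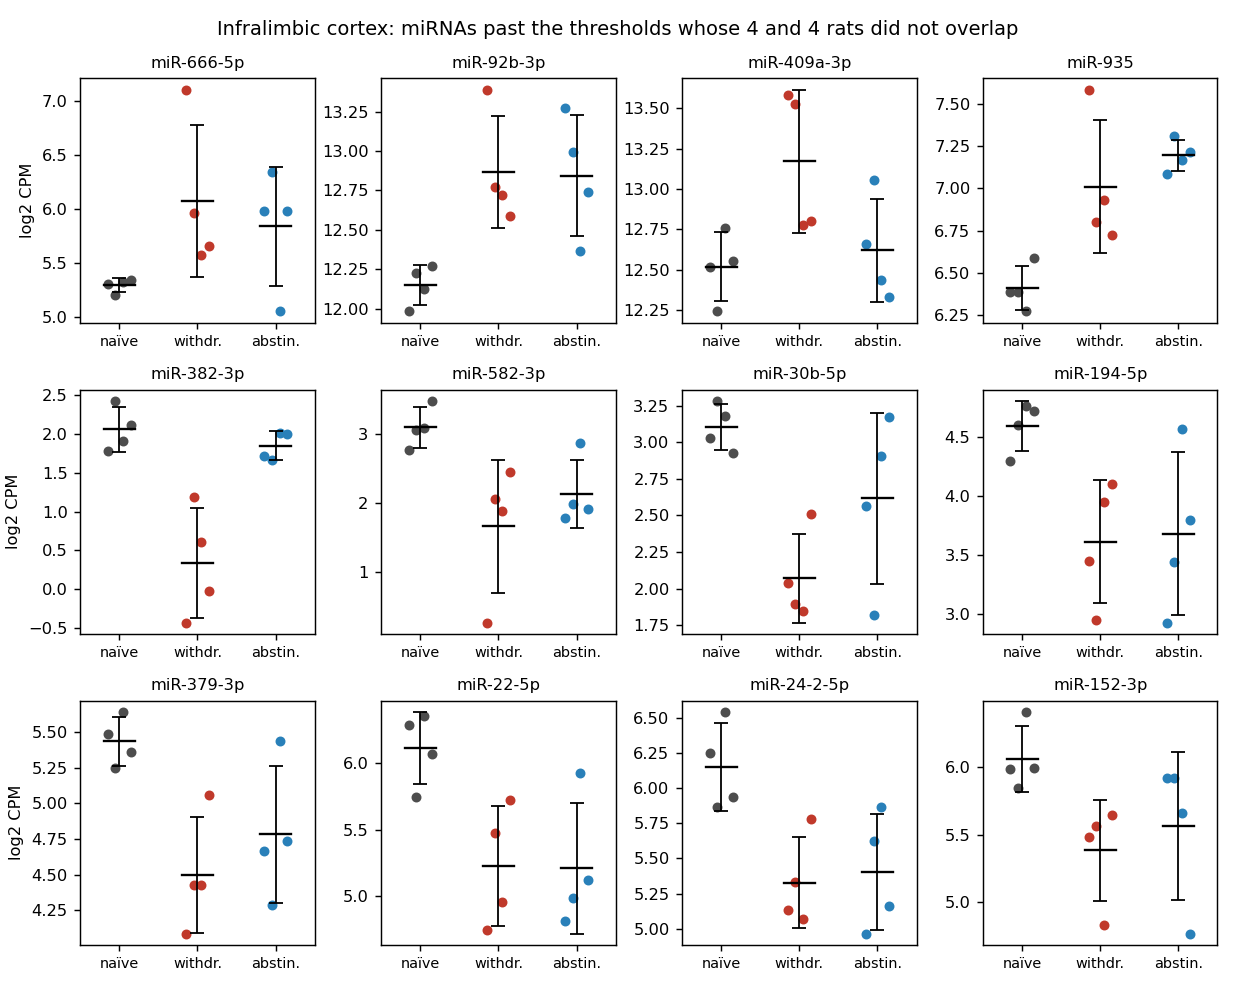
Level of the 12 miRNAs past both thresholds whose naïve and withdrawal rats did not overlap, in log2 CPM (vertical axes, not starting at 0), in 4 IL rats each of the naïve, withdrawal and abstinence groups; dots are rats, and bars the mean ± SD. The naïve and withdrawal dots do not overlap in any panel, and withdrawal rat 1 (leftmost red dot) is the highest in the 4 upper panels.

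The most abundant of the 3 miRNAs that passed with any 1 library left out was miR-92b-3p. With withdrawal rat 1 and naïve rat 3 both left out it did not pass. It is a member of the miR-25/92 seed family that is made in quantity in neural tissue. It stood at 11.98, 12.23, 12.12 and 12.27 log2 CPM in naïve rats 1 to 4 and at 13.39, 12.77, 12.72 and 12.59 in withdrawal rats 1 to 4. Every withdrawal rat was above every naïve rat, with means of 12.87 ± 0.36 and 12.15 ± 0.13 (SD, n = 4 each). The modelled change, which adjusts for RIN, was log2FC = 0.75 ± 0.27 SE, a 1.68-fold higher level, and without withdrawal rat 1 it was 0.61 on the log2 scale. Its other arm miR-92b-5p had log2FC = 0.57 ± 0.30 SE and did not pass.

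Members of the family with the same seed are set out below, since miR-92a-3p differs from miR-92b-3p at no more than 2 bases and reads of one can be counted for the other.
miR-92a-3p: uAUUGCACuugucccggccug
miR-25-3p: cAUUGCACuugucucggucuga
miR-363-3p: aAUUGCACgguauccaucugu

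None of the 3 seed mates passed the thresholds: miR-92a-3p had log2FC = 0.38 ± 0.26 SE, miR-25-3p −0.21 ± 0.25 and miR-363-3p −0.17 ± 0.54. Of 8 tested arms, which include opposite arms without the seed, 1 was higher and none lower, beside 3.28% and 3.06% of all 457 miRNAs. The median log2FC of these arms was 0.52, beside −0.02 over all 457 miRNAs. The opposite arms were all above 0, from 0.47 (miR-25-5p) to 0.82 (miR-92a-1-5p). Of those with the seed, miR-92b-3p and miR-92a-3p were above 0 and miR-25-3p and miR-363-3p below. The summed level over both kinds of arm, most of it miR-92b-3p, was 5754 to 7090 CPM in naïve rats and 8799 to 13636 CPM in withdrawal rats, so the sums did not overlap. Of the 8 changes 6 were above 0, and differences between the members were not tested.

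The other 3 non-overlapping higher miRNAs began with miR-935, one of the 20 most cortex-enriched miRNAs in the naïve rats of this series. miR-935 stood at 6.39, 6.39, 6.27 and 6.59 log2 CPM in the 4 naïve rats and at 7.58, 6.80, 6.93 and 6.72 in the 4 withdrawal rats. Withdrawal rat 1 was well above the other 3, which lay closer to the highest naïve rat. With RIN in the model, the change was log2FC = 0.64 ± 0.22 SE. Without withdrawal rat 1 the log2FC was 0.46 and did not pass. miR-666 is an imprinted miRNA of the Dlk1-Dio3 region, where a long run of miRNAs is expressed from the maternal chromosome. miR-666-5p stood at 5.30, 5.20, 5.32 and 5.34 log2 CPM in the 4 naïve rats and at 7.10, 5.96, 5.57 and 5.66 in the 4 withdrawal rats. The naïve rats were tightly grouped, and withdrawal rat 1 stood far above the rest. The change was log2FC = 0.80 ± 0.30 SE. Without withdrawal rat 1 the log2FC was 0.28.

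Both arms of miR-666 passed the thresholds, and its hairpin is printed with the 5p and 3p arms in capitals to show where they lie (RefSeq, GRCr8).
Mir666: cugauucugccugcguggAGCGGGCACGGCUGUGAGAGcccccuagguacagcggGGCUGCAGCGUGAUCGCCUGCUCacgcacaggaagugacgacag

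miR-666-3p had log2FC = 0.79 ± 0.35 SE, but its rats overlapped, and its counts were 6, 22, 12 and 7 in naïve rats and 25, 8, 30 and 15 in withdrawal rats. Here withdrawal rat 3 and not rat 1 was the highest, and the log2FC without rat 1 was 0.69. The 5p arm was the more abundant, at an average of 5.35 log2 CPM over all libraries against 0.81 for the 3p arm.

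miR-409a-3p comes from the miR-379/410 cluster of the same imprinted region and is among its most abundant products. miR-409a-3p stood at 12.52, 12.24, 12.76 and 12.56 log2 CPM in the 4 naïve rats and at 13.58, 13.53, 12.78 and 12.80 in the 4 withdrawal rats. Withdrawal rats 1 and 2 were well above, while rats 3 and 4 exceeded naïve rat 3 by a small margin. In the model this was log2FC = 0.66 ± 0.29 SE. It was 0.57 without withdrawal rat 1 and then did not pass. Its other arm miR-409a-5p went the opposite way without passing the thresholds, at log2FC = −0.30 ± 0.20 SE, and there each withdrawal rat was below each naïve rat.

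Among the lower miRNAs, miR-582-3p had the lowest p of those without overlap. miR-582-3p stood at 2.77, 3.07, 3.09 and 3.49 log2 CPM in the 4 naïve rats and at 0.27, 2.06, 1.88 and 2.45 in the 4 withdrawal rats. Each withdrawal rat was below each naïve rat, and withdrawal rat 1 was far below the other 3. In the model this was log2FC = −1.14 ± 0.37 SE. That is a 2.21-fold lower level, and without withdrawal rat 1 the log2FC was −0.73 and still passed. The counts behind it were 54, 92, 82 and 86 in naïve rats and 10, 35, 37 and 46 in withdrawal rats.

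miR-30b-5p belongs to the miR-30 family, one of the abundant miRNA families of the brain. miR-30b-5p stood at 3.03, 3.29, 3.18 and 2.92 log2 CPM in the 4 naïve rats and at 2.04, 1.89, 1.84 and 2.51 in the 4 withdrawal rats. The groups did not overlap, and the nearest rats were naïve rat 4 and withdrawal rat 4. With RIN in the model, the change was log2FC = −0.86 ± 0.32 SE. Its counts were low, 58 to 107 in naïve rats and 31 to 48 in withdrawal rats, and the 3p arm was counted at a higher level (6.29 against 3.43 log2 CPM on average). That arm had log2FC = 0.21 ± 0.22 SE.

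In the rest of the family of miR-30 and miR-384 no other arm passed. Of 13 tested, 5p and 3p arms together, 1 was lower and 0 higher, with a median log2FC of −0.20. Over all 457 miRNAs, 3.06% were lower and 3.28% higher. The 5p arms, which carry the family seed, were all below 0, from −0.86 (miR-30b-5p) to −0.10 (miR-30d-5p). The 3p arms went both ways, from −0.21 (miR-30e-3p) to 0.51 (miR-384-3p). miR-30c-5p had 10.70, 10.75, 10.66 and 10.55 log2 CPM in naïve rats and 9.68, 9.81, 9.98 and 10.47 in withdrawal rats. These did not overlap, yet with RIN in the model its log2FC of −0.43 ± 0.31 SE did not pass. miR-30d-5p, the most abundant member, had log2FC = −0.10 ± 0.18 SE. The family median was −0.055 without naïve rat 3.

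miR-194 is transcribed with miR-192 and is best known from liver and gut epithelium. miR-194-5p stood at 4.29, 4.60, 4.76 and 4.72 log2 CPM in the 4 naïve rats and at 3.45, 2.95, 3.95 and 4.10 in the 4 withdrawal rats. The lowest naïve rat was above the highest withdrawal rat. With RIN in the model, the change was log2FC = −0.81 ± 0.36 SE. Without withdrawal rat 1 it was −0.62 and did not pass. Its partner miR-192-5p had 4.96, 4.55, 5.73 and 4.69 log2 CPM in naïve rats and 3.64, 3.91, 4.01 and 4.45 in withdrawal rats, again without overlap, but it missed the p threshold, at log2FC = −0.87 ± 0.49 SE. The third arm tested, miR-194-3p, had log2FC = 0.26 ± 0.35 SE. Summed over these arms, the naïve rats had 51.9 to 81.8 CPM and the withdrawal rats 26.0 to 43.2 CPM.

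From the miR-379/410 cluster, miR-382-3p had the largest lower change of the 14. miR-382-3p stood at 1.78, 2.43, 1.92 and 2.12 log2 CPM in the 4 naïve rats and at −0.43, 1.20, 0.61 and −0.02 in the 4 withdrawal rats. No rats overlapped, though the withdrawal values were spread widely. With RIN in the model, the change was log2FC = −1.29 ± 0.58 SE. It was −0.91 without withdrawal rat 1 and then did not pass. Its counts were 27, 59, 36 and 33 in naïve rats and 6, 19, 15 and 8 in withdrawal rats, few enough that counting error is part of the spread. It was also past the thresholds in the NAc of the same rats (log2FC = −1.04 ± 0.49 SE).

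The hairpin is printed with both arms in capitals because the arms behaved unequally.
Mir382: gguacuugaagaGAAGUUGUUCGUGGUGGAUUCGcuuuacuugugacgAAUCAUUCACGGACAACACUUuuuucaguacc

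The abundant 5p arm, miR-382-5p, had 11.09, 11.21, 11.09 and 11.76 log2 CPM in naïve rats and 11.16, 11.28, 11.23 and 11.31 in withdrawal rats. These overlapped fully, with log2FC = −0.05 ± 0.14 SE. A difference between the arms was not tested.

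The groups were also apart in the minor arm of the lead miRNA of the cluster. miR-379-3p stood at 5.48, 5.25, 5.64 and 5.36 log2 CPM in the 4 naïve rats and at 4.09, 4.43, 4.43 and 5.06 in the 4 withdrawal rats. Withdrawal rat 4 came nearest to the naïve range. With RIN in the model, the change was log2FC = −0.73 ± 0.32 SE. It was −0.48 without withdrawal rat 1 and then did not pass. Its 5p arm had log2FC = −0.55 ± 0.34 SE and did not pass. miR-411-3p, which differs from miR-379-3p at 1 base, had −0.47 ± 0.37, and reads could have been shared between them.

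3 further lower miRNAs were the less abundant products of common hairpins or families. miR-22-5p stood at 6.29, 5.75, 6.35 and 6.07 log2 CPM in the 4 naïve rats and at 4.75, 5.47, 4.96 and 5.72 in the 4 withdrawal rats. The naïve rats were all above the withdrawal rats, with naïve rat 2 and withdrawal rat 4 closest. The change was log2FC = −0.72 ± 0.33 SE. Leaving out withdrawal rat 1 gave −0.46, which did not pass. The guide arm miR-22-3p, at 10.93 log2 CPM on average against 6.17 for the 5p arm, had log2FC = −0.14 ± 0.21 SE. The miR-23/24/27 clusters carry miR-24 together with miR-23 and miR-27. miR-24-2-5p stood at 6.25, 5.86, 6.54 and 5.94 log2 CPM in the 4 naïve rats and at 5.13, 5.33, 5.07 and 5.78 in the 4 withdrawal rats. The groups again did not overlap. The change was log2FC = −0.72 ± 0.33 SE. Without withdrawal rat 1 it was −0.54.

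miR-24-1-5p comes from the other miR-24 hairpin and has the same seed.
miR-24-1-5p: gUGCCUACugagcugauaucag

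It had log2FC = −0.35 ± 0.26 SE. The shared guide arm miR-24-3p had 12.44, 12.19, 12.45 and 12.33 log2 CPM in naïve rats and 11.70 to 12.16 in withdrawal rats, so it did not overlap either, but its change of −0.33 ± 0.18 SE was under the fold threshold. Over the clusters, 1 of 11 arms was lower and 0 higher, beside 3.06% and 3.28% of all 457 miRNAs. The median log2FC of the clusters was −0.35, and it became −0.19 without withdrawal rat 1. The summed level was 7127 to 8334 CPM in naïve rats and 4986 to 6862 CPM in withdrawal rats.

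miR-152 belongs to the family of miR-148 and miR-152, known for targeting the DNA methyltransferase Dnmt1. miR-152-3p stood at 5.99, 5.84, 6.41 and 6.0 log2 CPM in the 4 naïve rats and at 5.49, 5.57, 4.83 and 5.65 in the 4 withdrawal rats. Withdrawal rat 3 was the lowest and the other 3 lay nearer the naïve range. The change was log2FC = −0.61 ± 0.28 SE. Leaving out withdrawal rat 1 gave −0.54, which did not pass.

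The family's main member in these libraries has the same seed.
miR-148b-3p: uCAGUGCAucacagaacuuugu

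miR-148b-3p differs from miR-152-3p at no more than 2 bases, so the counts of the rarer miR-152-3p are uncertain. It averaged 9.57 log2 CPM against 5.86 and had log2FC = −0.26 ± 0.14 SE.

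The remaining 17 of the 29 had overlapping rats, 6 lower and 11 higher. Among the 6 lower, miR-873-5p had the lowest p of the whole comparison (log2FC = −0.59 ± 0.18 SE), but its exact permutation p was 0.114, since withdrawal rat 2 at 5.82 was above 3 naïve rats. miR-497-5p, of the cell-cycle-linked miR-15/16 seed family, had log2FC = −0.65 ± 0.22 SE and an exact permutation p of 0.0571, with naïve rat 4 at 3.79 inside the withdrawal range. miR-532-5p, from a cluster on the X chromosome, had log2FC = −0.61 ± 0.24 SE. Without withdrawal rat 1 the log2FC of miR-873-5p, miR-497-5p and miR-532-5p were −0.42, −0.52 and −0.47, and none of them passed.

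miR-497-5p is printed with its tested seed mates, because they tell whether one member or the family differed.
miR-497-5p: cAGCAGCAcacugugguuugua
miR-195-5p: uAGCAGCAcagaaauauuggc
miR-16-5p: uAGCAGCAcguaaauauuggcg
miR-15b-5p: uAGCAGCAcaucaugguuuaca
miR-322-5p: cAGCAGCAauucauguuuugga

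miR-195-5p, from the same cluster, had log2FC = −0.69 ± 0.37 SE, and miR-16-5p −0.54 ± 0.39. The change of miR-15b-5p was 0.02 ± 0.34, and that of miR-322-5p, a very rare miRNA here, −0.78 ± 1.08. So 1 of 9 arms listed for the family passed, beside 6.35% of all 457 miRNAs, and the family's median log2FC was −0.06. That median also covers opposite arms without this seed, such as miR-195-3p (0.20) and miR-503-3p (0.38). Of the miRNAs printed above, which share the seed, all but miR-15b-5p were below 0, and only miR-497-5p passed. The other 3 lower miRNAs were miR-434-5p (log2FC = −0.75 ± 0.36 SE), a product of the antisense strand of the imprinted gene Rtl1, miR-496-5p (log2FC = −0.88 ± 0.36 SE) of the miR-379/410 cluster, and miR-551b-3p (log2FC = −0.97 ± 0.44 SE). The last had counts of 13, 38, 37 and 22 in naïve rats and 10, 4, 16 and 22 in withdrawal rats.

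Of the 11 higher miRNAs with overlap, miR-485-3p was the most abundant and had the lowest p (log2FC = 0.60 ± 0.20 SE). It also lies in the miR-379/410 cluster, and without withdrawal rat 1 its log2FC was 0.55 and did not pass. It stood at 10.29, 10.41, 10.69 and 10.57 log2 CPM in naïve rats and at 11.40, 11.18, 10.86 and 10.65 in withdrawal rats, where only rat 4 fell inside the naïve range. Its 5p arm had almost the same change (0.60 ± 0.34) and did not pass, with edgeR adjusted p = 0.489.

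In miR-187-5p the change of 0.98 ± 0.41 SE rested on 1 animal: withdrawal rat 1 had 5.93 log2 CPM, and the other 3 had 3.74 to 4.25, within the naïve range of 2.89 to 4.33. Without it the log2FC was 0.27. The other arm, miR-187-3p, had 0.57 ± 0.30.

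5 of the higher miRNAs were close to the limit of detection. miR-871-3p, of a testis-expressed X-linked cluster, had counts of 0, 3, 5 and 0 in naïve rats and 46, 16, 1 and 1 in withdrawal rats. miR-3544 had 0, 2, 8 and 0 against 42, 5, 0 and 1, and without withdrawal rat 1 its log2FC of 2.30 became −0.46. The others were miR-344a (2, 10, 2 and 6 against 23, 11, 8 and 7), miR-331-5p (5, 9, 3 and 4 against 16, 6, 8 and 12) and miR-3541 (8, 13, 11 and 11 against 22, 14, 30 and 9). Their log2FC were 3.29, 2.30, 1.23, 1.09 and 0.90 in the order named, with SE of 1.53, 1.04, 0.58, 0.51 and 0.43. That of miR-871-3p was 1.99 and that of miR-344a 0.68 without withdrawal rat 1, when none of the 5 passed. Of the 15 higher miRNAs, 9 averaged under 3 log2 CPM, as did 4 of the 14 lower and 158 of the 457 tested (34.6%).

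**Figure D2:**
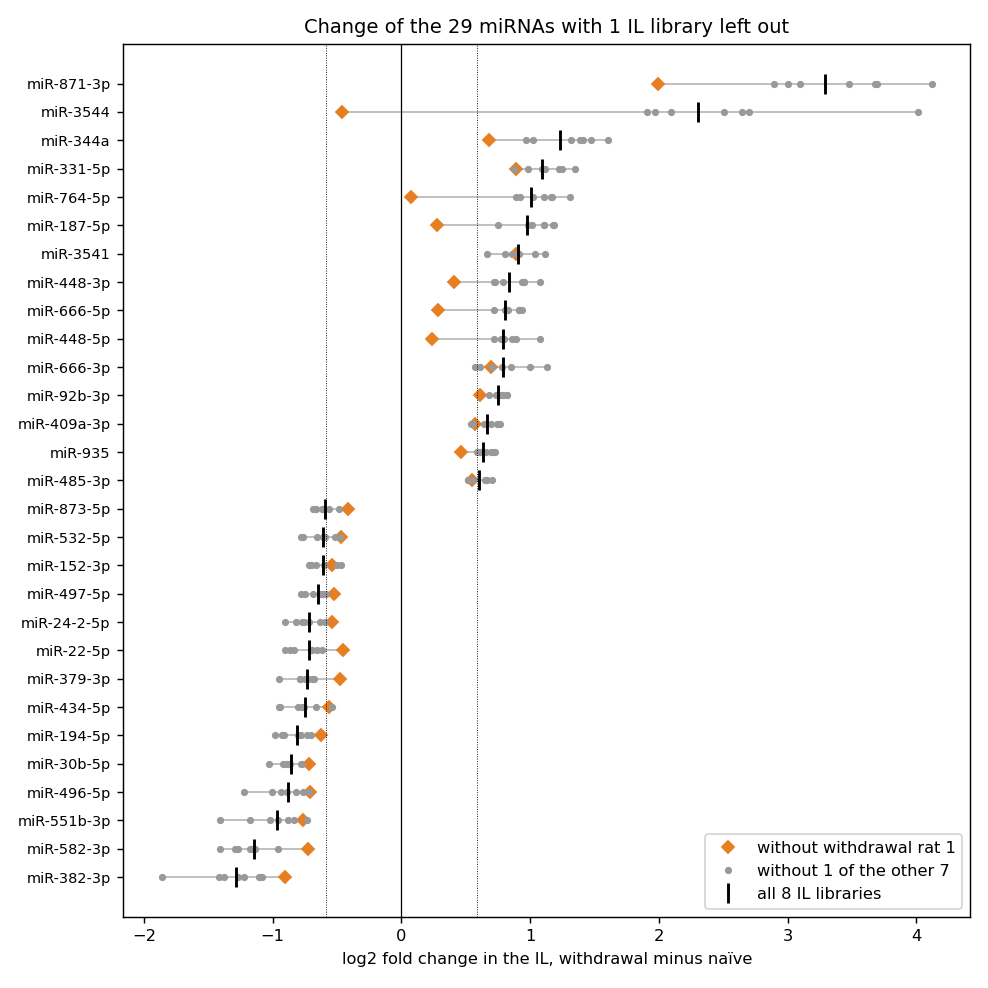
Change of the 29 miRNAs in the IL (horizontal axis, log2 fold change, withdrawal minus naïve) with all 8 libraries (black bars), without withdrawal rat 1 (orange diamonds) and without each of the other 7 (grey dots; grey lines span all values; dotted lines mark a fold change of 1.5). The diamonds lie nearest to 0 for many miRNAs, and that of miR-3544 is at −0.46 while its black bar is at 2.30.

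3 of the higher miRNAs, miR-448-5p, miR-448-3p and miR-764-5p, lie in introns of Htr2c, the X-linked gene of the serotonin 2C receptor. miR-764-5p had 1.88, 2.11, 2.30 and 2.59 log2 CPM in naïve rats and 4.55, 2.60, 1.33 and 2.80 in withdrawal rats, where rat 1 was far above and rat 3 below every naïve rat. miR-448-5p had 1.72, 2.11, 1.87 and 2.07 against 3.78, 2.68, 1.15 and 2.73, and miR-448-3p had 0.74, 0.67, 1.34 and 1.26 against 2.71, 0.95, 0.61 and 1.84, with rat 1 highest and rat 3 lowest of the withdrawal rats in both. Their log2FC were 1.00 ± 0.47 SE, 0.79 ± 0.36 and 0.84 ± 0.39. With withdrawal rat 1 left out they were 0.07, 0.24 and 0.41.

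Of the 6 Htr2c-hosted arms tested, 3 were higher and 0 lower, beside 3.28% and 3.06% of all 457 miRNAs. The median log2FC of the hosted arms was 0.81. Without withdrawal rat 1 none passed and the median was 0.16. The most abundant of them, miR-1298, had log2FC = 0.74 ± 0.40 SE and did not pass. The summed level of the hosted miRNAs was 685 CPM in withdrawal rat 1 and 108 to 230 CPM in the other 3 withdrawal rats, against 119 to 292 CPM in naïve rats. Taken as a sum, miRNAs that mark ependyma and choroid plexus, the latter a tissue in which Htr2c is strongly expressed, were also highest in that library. Their sum over 8 arms (miR-204, miR-211, miR-34b, miR-34c and miR-449a) was 2844 CPM in withdrawal rat 1, 1270 to 1659 CPM in the other 3 and 1434 to 1980 CPM in naïve rats. With all libraries none of the 8 passed the thresholds, their median log2FC was 0.14, and miR-204-5p had 0.15 ± 0.20 SE. When withdrawal rat 1 was left out, their median was −1.02 and 3 were lower past the thresholds, miR-34c-5p (−1.08), miR-34b-5p (−1.41) and miR-34c-3p (−1.55). The median was 0.69 without naïve rat 3. miR-34c-5p stood at 5.79, 4.94, 7.72 and 5.55 log2 CPM in naïve rats and at 7.76, 5.65, 5.15 and 5.46 in withdrawal rats, so naïve rat 3 and withdrawal rat 1 were each far above the rest of their group. Without naïve rat 3 its log2FC was 0.89, and none of the 3 passed when both rats were left out. Their part in the change of the Htr2c-hosted miRNAs was not tested.

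In the imprinted Dlk1-Dio3 region, 83 mature miRNAs were tested and 8 of them were among the 29, 4 higher and 4 lower, with 40 changes above 0 and 43 below. That is 9.64% past the thresholds, beside 6.35% of all 457 miRNAs, of which 224 were above 0 and 233 below. Within it, the miR-379/410 cluster had 2 higher and 3 lower of 57 (median log2FC −0.11), the Rtl1 antisense group 0 higher and 1 lower of 9 (−0.12) and the remaining miRNAs of the region 2 higher and 0 lower of 17 (0.30). Those 2 are the arms of miR-666, whose hairpin lies within 10000 bases of miR-543 and other members of the miR-379/410 cluster, so that the cluster holds 4 of the higher miRNAs if miR-666 is counted with it. The most abundant members did not pass, with log2FC of 0.16 ± 0.17 SE for miR-127-3p, 0.17 ± 0.18 for miR-543-3p and 0.32 ± 0.28 for miR-370-3p. The region as a whole had a median of −0.05. None of its members passed without withdrawal rat 1, and the medians of the region and of the miR-379/410 cluster changed sign, to 0.066 and 0.046.

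Families and markers that earlier work has tied to neurons or to cocaine had no member past the thresholds, beside 6.35% of all 457 miRNAs; the 6 lists given here hold 60 different miRNAs. The neuron-enriched list had 0 of 19 (median log2FC −0.18), with miR-128-3p at −0.24 ± 0.30 SE and miR-9a-5p at −0.35 ± 0.42. The activity-regulated miR-132, miR-212 and miR-134 had 0 of 6 (−0.15), with miR-132-3p at −0.16 ± 0.17 and miR-212-5p at −0.08 ± 0.21. The list of miRNAs linked to cocaine before had 0 of 17 (−0.09), with miR-181a-5p at 0.08 ± 0.15. Nearest to passing was let-7d-3p, also in the let-7 list, at 0.55 ± 0.25, with edgeR p under 0.05 and a fold under 1.5. It was 0.53 without withdrawal rat 1. miR-132-5p, also activity-regulated, was at −0.51 ± 0.27, and at −0.25 without that rat. The let-7 family had 0 of 17 (0.10), with let-7i-5p at −0.19 ± 0.23 and let-7c-5p at 0.12 ± 0.19, and the miR-181 family 0 of 8 (0.05). The family of miR-17 and miR-106b had 0 of 8 (0.16), with miR-106b-3p at 0.20 ± 0.17 and miR-93-5p at 0.11 ± 0.22. These family lists hold both arms of their hairpins, and the opposite arms do not carry the family seed. The medians of the neuron-enriched, activity-regulated and cocaine lists were −0.02, −0.005 and 0.02 without withdrawal rat 1, and then too none of the 6 lists had a member past the thresholds. With all libraries, miR-124-5p and miR-9a-3p were lower without overlap, 2 of the 19 neuron-enriched and 2 of the 17 cocaine-linked miRNAs. So was miR-134-3p, 1 of the 6 activity-regulated. Over all 457 miRNAs the share was 5.25%, and the let-7, miR-181 and miR-17 lists had none.

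With all libraries, markers of other cells also had no member past the thresholds. The summed immune level did not overlap, at 2757 to 3683 CPM in naïve rats and 1615 to 2516 CPM in withdrawal rats. The immune miR-146a-5p had log2FC = −0.48 ± 0.23 SE, with edgeR p under 0.05 and a fold under 1.5. The immune median given next became −0.21 without withdrawal rat 1. Sums of the oligodendrocyte, vascular and muscle lists overlapped. Medians were −0.23 for the 4 oligodendrocyte arms (miR-219-2-3p −0.15 ± 0.39 SE and miR-338-5p −0.32 ± 0.30), −0.41 for the 6 immune arms (miR-146b-5p −0.56 ± 0.33 and miR-150-5p −0.09 ± 0.21), −0.14 for the 6 vascular arms (miR-126a-3p −0.63 ± 0.43 and miR-143-3p −0.16 ± 0.46) and −0.18 for the 4 muscle arms (miR-206-3p −0.08 ± 0.31 and miR-499-5p −0.56 ± 0.42). The only erythroid miRNA tested, miR-451-5p, was near the limit of detection (−0.45 ± 0.90), and the 3 arms of the embryonic cluster of miR-290 to miR-295, also rare, had a median of −1.03 with none past the thresholds. The cluster summed to 5.3 to 11.2 CPM in naïve rats and to 6.7, 9.8, 0.10 and 0.47 CPM in withdrawal rats 1 to 4. Its miR-292-5p had means of 2.47 ± 0.38 log2 CPM in naïve and 0.22 ± 2.96 in withdrawal rats (SD). With RIN in the model its log2FC was −1.03 ± 0.93 SE. The neuronal markers named above were abundant in all 8 libraries, as in brain tissue generally. The epithelial and sensory list of 12 had the widest spread, with a median of 1.17 and sums of 92.9 to 215 CPM in naïve and 67.8 to 569 CPM in withdrawal rats. Its most abundant members were miR-375-3p (1.11 ± 0.69) and miR-183-5p (1.79 ± 1.17), and neither passed. miR-200a-5p had 1, 1, 0 and 0 counts in naïve and 5, 9, 14 and 2 in withdrawal rats, without overlap and without passing. It passed without withdrawal rat 1 (log2FC = 4.48), the only member of these lists to do so apart from the choroid plexus and ependymal miRNAs above. The last miRNA past the thresholds in that setting alone, miR-488-5p, had 2, 2, 1 and 3 counts in naïve and 0, 6, 4 and 5 in withdrawal rats.

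The IL borders other regions, so miRNAs that differ between regions were followed as a check on the dissection. The 20 miRNAs most enriched in the NAc over the PL of naïve rats, such as miR-7a-5p and miR-218a-5p, had a median log2FC of −0.43 in the IL, with 18 of 20 below 0 and none past the thresholds. The median was −0.24 without withdrawal rat 1, with 17 of 20 below 0. Relative to the naïve IL mean their median deviation was 0.06, −0.31, 0.41 and −0.26 log2 units in naïve rats and −0.69, −0.55, −0.80 and −0.15 in withdrawal rats. The 20 most cortex-enriched miRNAs, such as let-7c-5p and let-7b-5p, had a median of 0.20, with 16 of 20 above 0 and 1 past the thresholds (miR-935), and this median was 0.079 without withdrawal rat 3. Their deviations were −0.09, 0.11, −0.17 and 0.20 in naïve rats and 0.28, 0.18, 0.38 and 0.02 in withdrawal rats. By this deviation, 3 of the 4 withdrawal libraries were lower in accumbens-enriched miRNAs than every naïve library. The median level of the accumbens list was 6.45 to 6.85 log2 CPM in withdrawal rats and 6.96 to 7.50 in naïve rats. The accumbens list includes relatives of miRNAs past the thresholds, from the same hairpin, family, cluster or host gene. Those below 0 in the IL were miR-192-5p, miR-16-5p, miR-30e-5p, miR-384-5p, miR-27b-3p, miR-411-5p, miR-410-3p, miR-495 and miR-431. Those above 0 were miR-1298 and miR-187-3p. The part of this list in the changes past the thresholds was not tested.

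**Figure D3:**
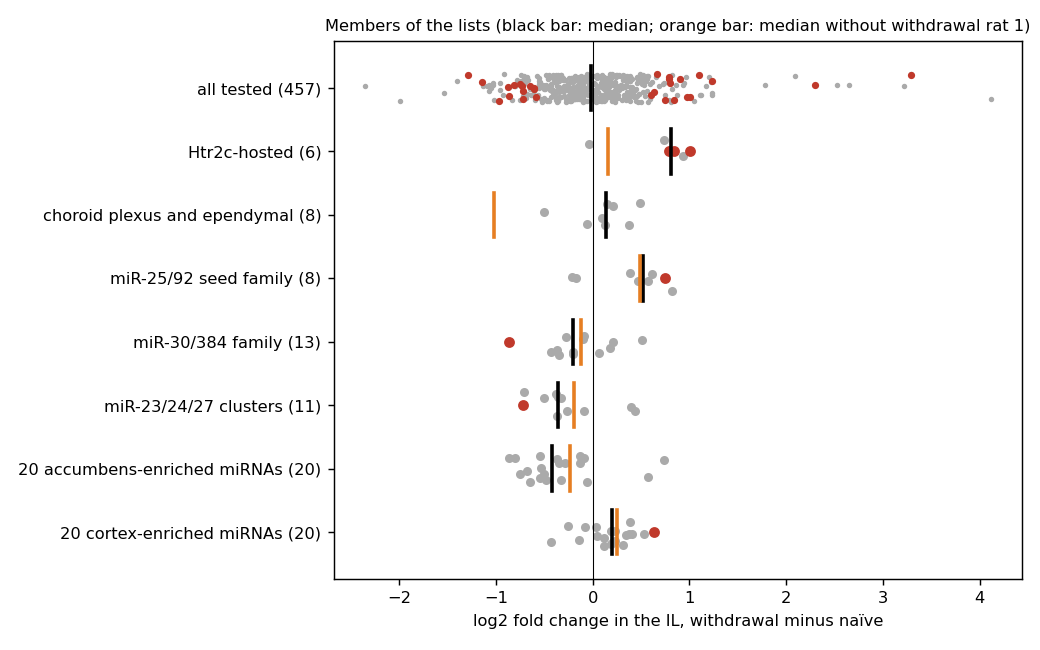
Change in the IL (horizontal axis, log2 fold change, withdrawal minus naïve) of all 457 tested miRNAs and of the members of 7 lists, with the number tested in brackets; dots are miRNAs (red past both thresholds), black bars the median and orange bars the median without withdrawal rat 1. The black bar of the Htr2c-hosted list is at 0.81 and its orange bar at 0.16, and the choroid list moves from 0.14 to −1.02.

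The same rats gave PL and NAc libraries, in which 22 (4.81%) and 13 (2.84%) miRNAs passed the thresholds at withdrawal. None of the 29 passed in the PL and 1, miR-382-3p, in the NAc. In the PL, 7 of the 15 higher and 5 of the 14 lower miRNAs had a change of the same sign as in the IL, and in the NAc 12 of 15 and 13 of 14. Over all 457 miRNAs the sign was shared by 170 with the PL and by 355 with the NAc, so the NAc counts are read against a high background. Changes of the 14 lower miRNAs ranged from −0.55 to 0.23 in the PL and from −1.04 to 0.29 in the NAc.

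The difference of the change itself was tested between regions in the same model. Between IL and PL it passed a fold of 1.5 and p under 0.05 for 45 miRNAs (9.85%) and between IL and NAc for 5 (1.09%), with 0 in either after Benjamini-Hochberg adjustment in edgeR. An unadjusted p under 0.05 was reached by 48 (10.5%) and 5 (1.09%). IL and PL libraries came from the same rats, and with the rat as a random block (limma-voom) the IL minus PL count was 66, 32 higher and 34 lower, against 28 and 24 in limma-voom without the block and 29 and 16 in edgeR. The count of 45 became 17 without withdrawal rat 1, 24 without naïve rat 3, 29 without withdrawal rat 3 and 70 without withdrawal rat 4 (IL libraries). Of the 29, the IL and PL changes differed by that test in 9, including miR-92b-3p (IL minus PL 0.80 ± 0.38 SE), miR-30b-5p (−1.10 ± 0.44), miR-582-3p (−1.12 ± 0.50) and miR-666-5p (1.09 ± 0.43). The IL and NAc changes differed in 1, miR-496-5p (−1.16 ± 0.49). The accumbens-enriched list had a median change of 0.38 in the PL and −0.43 in the NAc at withdrawal. The cortex-enriched list had −0.30 and 0.18. Both lists were picked by the NAc minus PL difference in naïve rats, whose libraries are also the baseline of these PL and NAc changes. The picking alone can give these signs, so no conclusion is drawn from them.

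**Figure D4:**
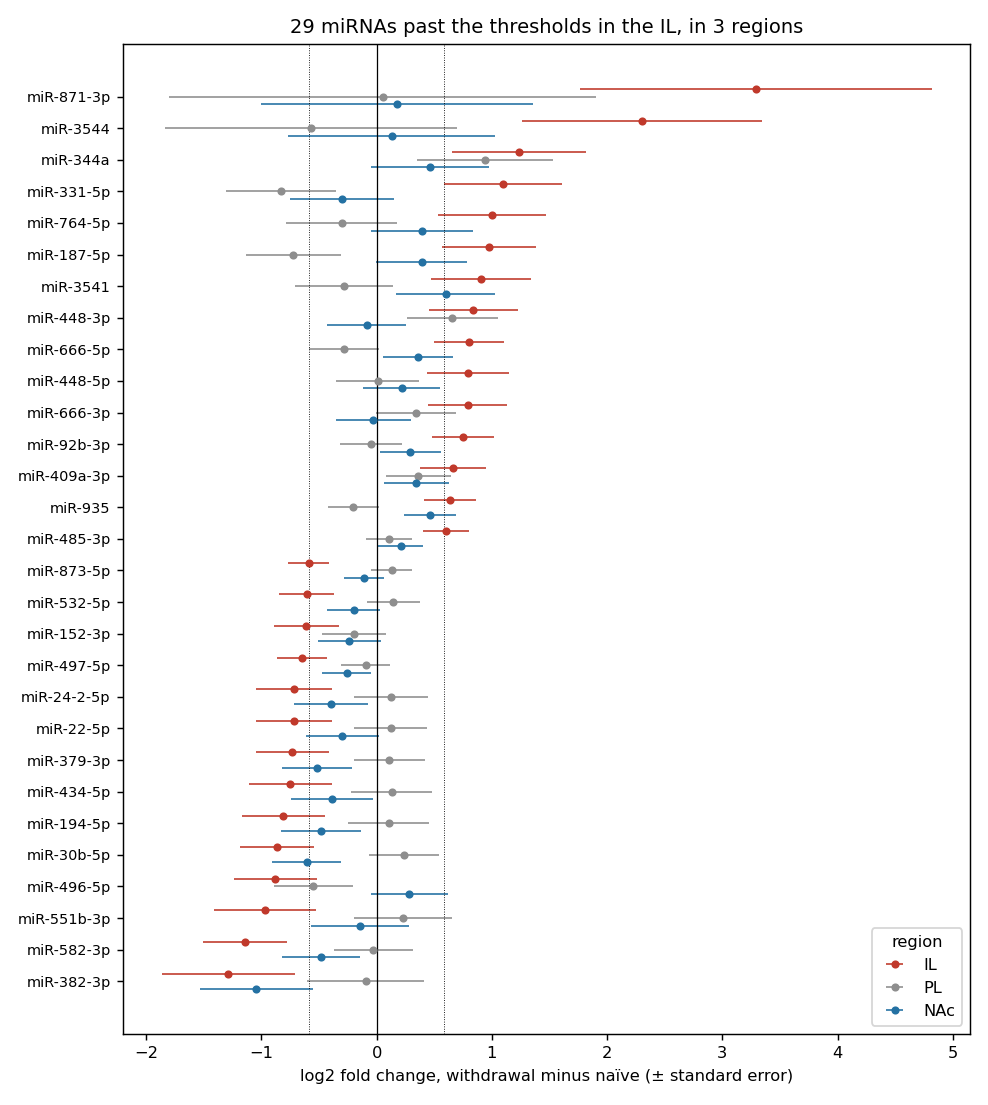
Change at withdrawal (horizontal axis, log2 fold change against naïve ± SE) of the 29 miRNAs past the thresholds in the IL, shown for the IL, PL and NAc of the same 8 rats; dotted lines mark a fold change of 1.5. Most PL points lie near or across 0 from the IL points, and 13 of the 14 lower miRNAs are also below 0 in the NAc.

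After 4 weeks of abstinence, 38 miRNAs (8.32%) passed the thresholds in the IL. That comparison uses the same 4 naïve libraries, so the values are given side by side without a test of their likeness. miR-92b-3p had log2FC = 0.75 at withdrawal and 0.72 in abstinence, and miR-935 had 0.64 and 0.78. miR-409a-3p had 0.66 and 0.07, miR-666-5p 0.80 and 0.35. Of the lower miRNAs, miR-582-3p had −1.14 and −0.77, miR-22-5p −0.72 and −0.70, miR-30b-5p −0.86 and −0.21, and miR-382-3p −1.29 and 0.19. In abstinence miR-382-3p was at 1.72, 1.67, 2.02 and 2.0 log2 CPM, above every withdrawal rat.

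A further 22 miRNAs did not overlap between the groups but missed a threshold, 6 higher and 16 lower. In 3 of them, named here after their values were seen, p was under 0.05 and the fold under 1.5. miR-125b-1-3p had 9.75, 9.80, 9.84 and 9.83 log2 CPM in naïve rats and 10.56, 10.48, 10.31 and 10.06 in withdrawal rats (log2FC = 0.53 ± 0.24 SE). miR-598-3p had 7.50, 7.0, 7.62 and 7.53 against 6.85, 6.74, 6.45 and 6.98 (−0.55 ± 0.23). miR-185-5p had 9.83, 9.82, 9.53 and 9.84 against 8.91, 9.22, 9.46 and 9.48 (−0.43 ± 0.20). The first is on the cortex-enriched and miR-598-3p on the accumbens-enriched list described above.

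The 2 directions differed in level and base composition, as a description. The 15 higher miRNAs had a median average level of 2.51 log2 CPM and the 14 lower 5.24, beside 4.78 over all tested. The median GC content of the mature sequences was 55.6% in the higher (13 with a sequence), 47.8% in the lower (13) and 50.0% over the 411 tested miRNAs with a sequence.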

How the data were processed

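Small RNA libraries of 36 dissected brain samples, 3 regions from each of 12 rats, were sequenced, and 4 withdrawal and 4 naïve IL libraries were compared here. The authors used CAP-miRseq to trim and align reads and to count each mature miRNA, and the deposited values are raw counts, not normalised. The submitters' processing notes name rat assembly mRatBN 7.2 (rn 7) and the paper an older build, so no coordinates are given. Counting error is small at these depths except for the rarest miRNAs, and intervals for PCR reads without molecular identifiers would cover counting error only. Group and RIN came from the labels, and rat identities, used only as a block, from the study's sample list, except 1 naïve NAc library placed as the only one missing.

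From the counts, rare miRNAs were filtered out (filterByExpr, count of 10 and total of 15 at the least), totals were scaled by TMM, and all 36 libraries were fitted with edgeR 4.0.16 (R 4.3.3) quasi-likelihood tests, 1 mean per region and group, with RIN as covariate. For log2 CPM, 0.5 was added as prior count. p-values were adjusted by Benjamini-Hochberg over 457 miRNAs. Exact permutation tests were two-sided. Scripts were tested on simulated data. Alternatives were limma 3.58.1 (voom, with and without a rat block), DESeq2 1.42.0, other scalings, filters, sample sets, no RIN, and each library left out; leaving out 2 libraries together was chosen after seeing the data. Names matched RefSeq sequences for 411 of 457 miRNAs. All miRNAs past the thresholds are named, with each rat's values where the groups did not overlap, and 2 abundant members of lists with none past them. The comparison and the lists were chosen with earlier results of these data known. Replicates are separate rats.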

Additional observations from a re-analysis of the deposited data

Results flagged for a closer look

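The most extreme rat of a group was compared with the others by Dixon's ratio, the gap to the nearest rat divided by the whole range, in 58 groups of 4 rats (the 29 miRNAs, naïve and withdrawal), of which chance would give about 1 in 20. It passed the 95% critical value in 2. Naïve rat 1 was high for miR-873-5p (6.12 log2 CPM against 5.73 to 5.74, ratio 0.962), and naïve rat 4 was low for miR-497-5p (3.79 against 4.51 to 4.60, ratio 0.885).

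The change at withdrawal differed between the IL and the PL with an unadjusted edgeR p under 0.05 for 9 of the 29 miRNAs, though each had an edgeR adjusted p of 0.443. The 29 were picked by their IL change, which is part of this difference, so the picking alone can raise this count. Higher in the IL than in the PL were the changes of miR-331-5p (difference 1.92 ± 0.70 SE on the log2 scale), miR-187-5p (1.70 ± 0.59), miR-666-5p (1.09 ± 0.43), miR-935 (0.84 ± 0.32) and miR-92b-3p (0.80 ± 0.38). Lower were those of miR-582-3p (−1.12 ± 0.50), miR-30b-5p (−1.10 ± 0.44), miR-532-5p (−0.75 ± 0.33) and miR-873-5p (−0.72 ± 0.25). Between the IL and the NAc only miR-496-5p differed (−1.16 ± 0.49, edgeR adjusted p = 0.999).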

How the results depend on the processing

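All 19 alternatives left 0 miRNAs below 0.05 after adjustment, and the adjusted p of the 29 ranged from 0.123 to 0.977 over them. The count past the thresholds was 29 and became 45 without RIN, 54 with the 8 IL libraries alone and no RIN (26 with the 12 IL libraries and RIN) and 19 with limma-voom. With 1 library left out it ranged from 8 to 62, and it was 2 without withdrawal rat 1 and naïve rat 3. No paired analysis was possible because the withdrawal and naïve rats are different animals; with the rat as a random replicate block over regions the count was 20, and the IL minus PL count was 66 (32 higher and 34 lower, against 28 and 24 in limma-voom without the block and 29 and 16 in edgeR). The IL minus PL count of 45 became 81 without RIN, 17 to 70 with 1 library left out and 4 without both rats, and the IL minus NAc count of 5 ranged from 4 to 9. The count without overlap (34) ranged from 40 to 114 with 1 library left out, since 3 rats separate more readily than 4. With 1 library left out, list medians ranged from 0.41 to 0.57 (miR-25/92), −0.32 to −0.055 (miR-30 and miR-384), −0.43 to −0.19 (miR-23/24/27), 0.16 to 1.08 (Htr2c-hosted), −1.02 to 0.69 (choroid plexus and ependyma), −0.60 to −0.24 (accumbens-enriched) and 0.079 to 0.27 (cortex-enriched). The log2FC of miR-3544 ranged from −0.46 (without withdrawal rat 1, reversed) to 4.01 (without naïve rat 3). Of the values of single miRNAs under all alternatives, 489 kept direction and side of the threshold, and all others but 1 kept direction without passing; the cause was not tested.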
